A study of Mus musculus with 20 samples.

Results

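The genes described here encode the voltage-gated calcium and sodium channels, the potassium channels and their auxiliary subunits. They were taken as the autosomal protein-coding genes whose mouse symbol starts with Kcn, Cacna, Cacnb, Cacng or Scn followed by a digit or a subunit letter, with 1 kb of flank on either side, on the mm10 build, and a few genes were set aside. The choice used names and not methylation values. It gave 129 genes of 21887 protein-coding genes. Of the CpG positions listed in every library of an age, 11005 of 1151198 at 13 months and 11699 of 1234455 at 3 months lay in these genes or their flanks, and 10813 of 1132579 were listed at both ages.

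The assay was reduced representation bisulfite sequencing (RRBS). It samples CpG-rich fragments of a restriction digest and gives, at each position, the percentage of reads that still carry a methylated cytosine. DNA came from a microglia-enriched homogenate of the brain of mice of the B6D2F1/J background. HEM mice overexpress full-length human wild-type alpha-synuclein from a transgene on the X chromosome, driven by the murine Thy-1 promoter, which is active mainly in neurons, and WT mice were the controls. The older group, aged 13 months, had 8 HEM and 4 WT mice, and the younger, aged 3 months, had 4 of each. The series' description counts 3 WT mice at 3 months, and all 4 labelled libraries were used. The labels of 1 HEM library at 13 months leave out the strain, and no label gives sex. Each library is treated as 1 mouse.

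Ion channels let sodium, calcium or potassium cross the cell membrane. In neurons, voltage-gated sodium channels start the action potential, voltage-gated calcium channels trigger transmitter release and gene regulation, and potassium channels bring the membrane back to rest. Microglia, the brain's macrophages, do not fire action potentials, but a handful of potassium channels set their membrane potential and take part in process movement, calcium entry and inflammasome activation. CpGs close to a gene's start are usually unmethylated where they lie in a CpG island, while CpGs inside genes are usually methylated to varying degrees.

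Family by family, the 129 genes were 37 voltage-gated (Kv) potassium pore subunits, 15 inward rectifiers, 14 two-pore-domain potassium channels, 8 calcium- or sodium-activated potassium channels and 16 auxiliary subunits of potassium channels. On the calcium side were 9 pore subunits, 4 alpha2delta, 4 beta and 8 gamma subunits, and on the sodium side 10 pore and 4 beta subunits. CpGs within 1000 bp either side of either annotated end of a gene were averaged as its gene end, and the other CpGs inside the gene as its gene body. At least 1 CpG was listed for 126 genes. None was listed for Kcnj16, Kcne2 or Kcnrg. A value was given to a gene end or body with at least 3 CpGs, which left 95 ends at 13 months, 96 at 3 months and 115 bodies at each age. The median was 31 CpGs per end and 29 per body at 13 months. The Kcnmb1 gene lies inside Kcnip1, so that these genes share CpGs.

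The 7 promoter windows below show what an unmethylated, a methylated and a mixed channel start look like. They are RefSeq sequences of the GRCm38.p6 (mm10) assembly, from 250 bases before to 50 bases after an annotated start, 5′ to 3′ on the gene's strand, and capitals mark the CG pairs with a measured position. Kcna3 and Kcnj2, potassium channels that microglia are known to use, stand for unmethylated starts and Kcnk18 for a methylated one. Kcnip3 and Scn8a each show 2 starts that differ.
Kcna3, chr3:107035912-107036211, plus strand: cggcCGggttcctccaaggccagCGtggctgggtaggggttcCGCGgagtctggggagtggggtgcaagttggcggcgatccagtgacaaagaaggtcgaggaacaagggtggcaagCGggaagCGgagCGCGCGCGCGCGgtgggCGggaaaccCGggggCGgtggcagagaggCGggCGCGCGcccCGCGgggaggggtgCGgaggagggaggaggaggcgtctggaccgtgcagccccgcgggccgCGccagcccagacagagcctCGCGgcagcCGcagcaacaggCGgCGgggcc
Kcnj2, chr11:111065914-111066213, plus strand: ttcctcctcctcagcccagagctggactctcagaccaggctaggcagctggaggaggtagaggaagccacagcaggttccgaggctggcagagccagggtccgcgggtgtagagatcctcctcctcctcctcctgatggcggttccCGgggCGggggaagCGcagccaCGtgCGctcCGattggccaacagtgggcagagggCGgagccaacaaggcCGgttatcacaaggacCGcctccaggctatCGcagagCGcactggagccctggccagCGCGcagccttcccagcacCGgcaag
Kcnk18, chr19:59219398-59219697, plus strand: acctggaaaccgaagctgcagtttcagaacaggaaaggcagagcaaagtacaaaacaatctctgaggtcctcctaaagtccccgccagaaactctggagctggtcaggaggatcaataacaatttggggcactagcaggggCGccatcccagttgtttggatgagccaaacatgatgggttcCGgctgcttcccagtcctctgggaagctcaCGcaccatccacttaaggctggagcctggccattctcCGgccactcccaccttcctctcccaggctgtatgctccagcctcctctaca
Kcnip3 downstream start, chr2:127482450-127482749, minus strand: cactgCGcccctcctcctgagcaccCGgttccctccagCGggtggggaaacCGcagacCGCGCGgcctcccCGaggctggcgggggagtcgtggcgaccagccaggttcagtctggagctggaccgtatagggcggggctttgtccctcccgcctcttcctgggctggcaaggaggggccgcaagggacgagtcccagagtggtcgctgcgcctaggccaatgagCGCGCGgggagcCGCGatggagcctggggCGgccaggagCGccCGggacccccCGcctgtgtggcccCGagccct
Kcnip3 upstream start, chr2:127522045-127522344, minus strand: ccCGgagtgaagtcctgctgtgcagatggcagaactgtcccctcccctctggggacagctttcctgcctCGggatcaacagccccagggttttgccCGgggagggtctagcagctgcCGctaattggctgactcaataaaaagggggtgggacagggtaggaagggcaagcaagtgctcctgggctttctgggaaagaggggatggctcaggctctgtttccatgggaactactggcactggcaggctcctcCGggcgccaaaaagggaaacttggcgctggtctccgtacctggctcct
Scn8a upstream start, chr15:100870395-100870694, plus strand: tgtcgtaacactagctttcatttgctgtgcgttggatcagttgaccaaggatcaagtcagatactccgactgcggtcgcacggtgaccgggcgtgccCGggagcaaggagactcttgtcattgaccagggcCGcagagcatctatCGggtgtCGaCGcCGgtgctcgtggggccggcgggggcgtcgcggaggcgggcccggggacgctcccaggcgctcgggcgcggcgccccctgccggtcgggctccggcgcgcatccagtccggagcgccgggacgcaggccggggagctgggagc
Scn8a internal start, chr15:100936021-100936320, plus strand: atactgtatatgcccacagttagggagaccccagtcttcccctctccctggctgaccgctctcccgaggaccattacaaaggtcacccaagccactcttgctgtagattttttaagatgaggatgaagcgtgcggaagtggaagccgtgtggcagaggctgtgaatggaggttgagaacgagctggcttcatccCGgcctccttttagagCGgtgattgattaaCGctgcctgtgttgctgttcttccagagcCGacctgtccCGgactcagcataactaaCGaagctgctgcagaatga

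In WT at 3 months the Kcna3 window, with 37 CG pairs, was methylated at 0.202% ± 0.161 (SD, n = 4), and the Kcnj2 window, with 18, at 0.133% ± 0.113. The Kcnk18 window holds 6 CG pairs and was methylated at 78.9% ± 2.84. In Kcnip3, which encodes a calcium-binding partner of Kv4 channels, the CG-rich downstream start was at 0.691% ± 0.105. Its upstream start, with 8 CG pairs, was at 23.5% ± 7.17 in WT and 16.6% ± 3.85 in HEM at 3 months, and at 21.9% ± 5.68 in WT and 29.8% ± 10.2 (SD, n = 8) in HEM at 13 months. Scn8a, the Nav1.6 sodium channel of the axon initial segment, had 0.456% ± 0.390 at the upstream start with 38 CG pairs and 65.9% ± 7.35 at the internal start with 12. Thus the windows with many CG pairs were close to 0 and those with few were not, in each of these genes.

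Most measured channel promoters were like Kcna3. RefSeq gave 132 windows for 96 of the channel genes, and 56 windows of 53 genes held at least 3 measured positions. Of these, 51 (91.1%) were under 5% in WT at 3 months, against 94.5% of 9062 measured windows of all protein-coding genes. The 3 windows over 50% (5.36%, against 2.14% of all windows) belonged to Kcnk18, to Kcnj12 at 83.5% ± 1.5 and to the internal start of Scn8a. Kcnj12 encodes the inward rectifier Kir2.2, and its window held only 3 measured positions. Within 1000 bp of the start at the gene's end, Kcnj12 was at 0.659% over 103 CpGs in WT at 3 months. The methylated window thus belongs to another annotated start. The letters GGGCGG, a GC box, were found on either strand in 43.9% of the 132 channel windows and in 46.2% of all 21263. The letters TATAAA were in 5.30% of channel windows against 12.6% of all, and TGACGTCA, the CRE, in 0% against 2.23%. None of these motifs contains another, and a match in letters is a description only.

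Along the gene, the mean over CpGs stayed low for some way past the channel starts. In WT at 3 months, the first 500 bp after the start averaged 2.88% over 1092 CpGs of 59 channel genes, against 1.61% for all genes. From 1000 to 1500 bp the channel genes were at 2.96% and all genes at 7.01%, and from 1500 to 2000 bp at 8.41% and 11.6%. From 2000 to 2500 bp the order was turned, with 25.4% over 129 CpGs of 21 channel genes against 17.4%. This did not last. From 2500 to 3000 bp the channel genes were again lower, and from 3000 to 3500 bp they were at 18.2% against 27.5%. Farther in, the order varied between bins, with channel genes higher from 4000 to 4500 bp (50.1% over 28 CpGs of 8 genes). These are descriptions, since neighbouring CpGs of 1 gene share their fragment and a few genes with many CpGs weigh heavily.

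**Figure D1:**
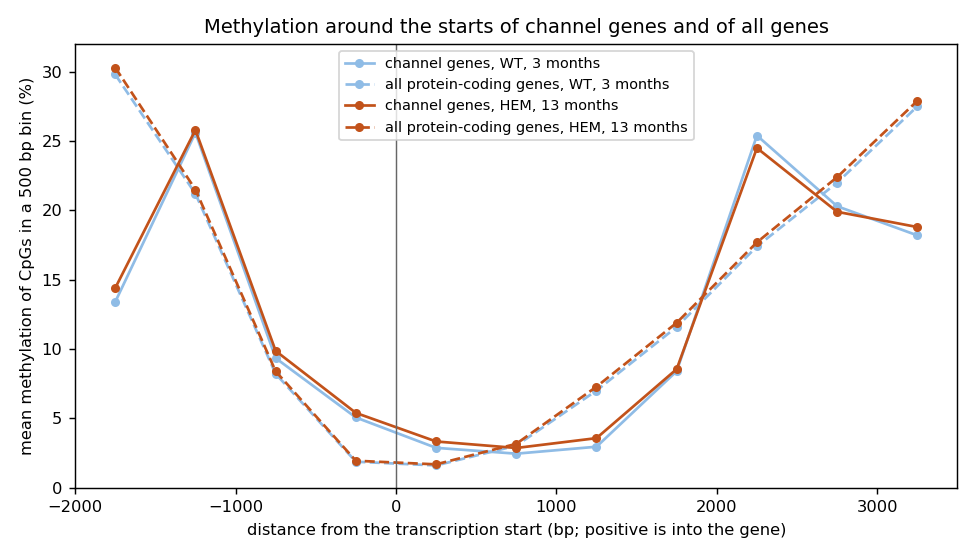
Mean methylation (percent, y axis) of CpGs in 500 bp bins by distance from the gene's start (bp, x axis; negative is upstream), for channel genes (solid) and all protein-coding genes (dashed) in WT at 3 months and HEM at 13 months. From 1000 to 1500 bp after the start the channel genes were at 2.96% in WT at 3 months and 3.58% in HEM at 13 months, while all genes had reached 7.01% in WT at 3 months.

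Starts and far ends of channel genes held different levels. RefSeq gave a strand for 96 channel genes. Of the 64 with at least 3 CpGs around the start, 50 were under 5% and 5 over 50% in WT at 3 months, with a median of 1.31%. Those 5 were Kcnk18, Kcnk10, Kcne4, Kcnip1 and Scn4a. Of the 19 genes with at least 3 CpGs around the far end, 1 was under 5% and 11 over 50%, with a median of 55.3%. Cacng8, an AMPA-receptor auxiliary subunit, was that 1 exception, at 0.237% over 61 CpGs.

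Averaged over CpGs, channel gene ends were nearly unmethylated and gene bodies intermediate in all 4 groups. At ends, the 3-month means were 5.75% ± 0.297 for WT and 5.62% ± 0.173 for HEM, and the 13-month means 5.98% ± 0.308 for WT and 6.24% ± 0.485 (SD, n = 8) for HEM. The WT libraries ranged from 5.40 to 6.11% at 3 months and from 5.67 to 6.36% at 13 months, and the HEM libraries from 5.39 to 5.75% and from 5.41 through a median of 6.42 to 6.72%. The ranges overlapped between genotypes at both ages. Gene bodies were at 43.8% ± 0.736 in WT and 43.9% ± 0.259 in HEM at 3 months, and at 43.9% ± 0.485 and 44.0% ± 1.25 at 13 months. Over all protein-coding genes the means were a little lower at ends, between 5.03 and 5.09%, and a little higher in bodies, between 46.2 and 46.6%. Weighting each gene equally raised the channel values to 16.1% at ends and 56.3% in bodies in WT at 3 months, so the low means rest on the genes with dense CpGs.

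Families differed far more than groups did. Over the CpGs listed at both ages, ends in WT at 3 months were lowest in the calcium alpha2delta subunits (0.885%), which guide channels to the surface, and in the Kv pore subunits (2.45%). They were highest in the potassium channel auxiliary subunits (14.3%), the two-pore-domain channels that carry leak current (10.8%) and the sodium pore subunits (9.84%). The auxiliary subunits were at 14.3% in HEM at 3 months, 14.8% in WT and 15.3% in HEM at 13 months. The gamma subunits ran from 4.96% in WT and 4.80% in HEM at 3 months to 5.62% and 5.84% at 13 months. In bodies, over the CpGs listed at 3 months in WT, sodium pore subunits were highest (63.8%) and two-pore-domain channels lowest (28.2%), with Kv pore subunits at 38.0% and auxiliary potassium subunits at 54.9%. With each gene weighted equally, the sodium pore ends (41.4%) lay above the two-pore-domain ends (33.9%) and the Kv pore ends stayed low (3.43%). The order of these families thus changed with the weighting.

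**Figure D2:**
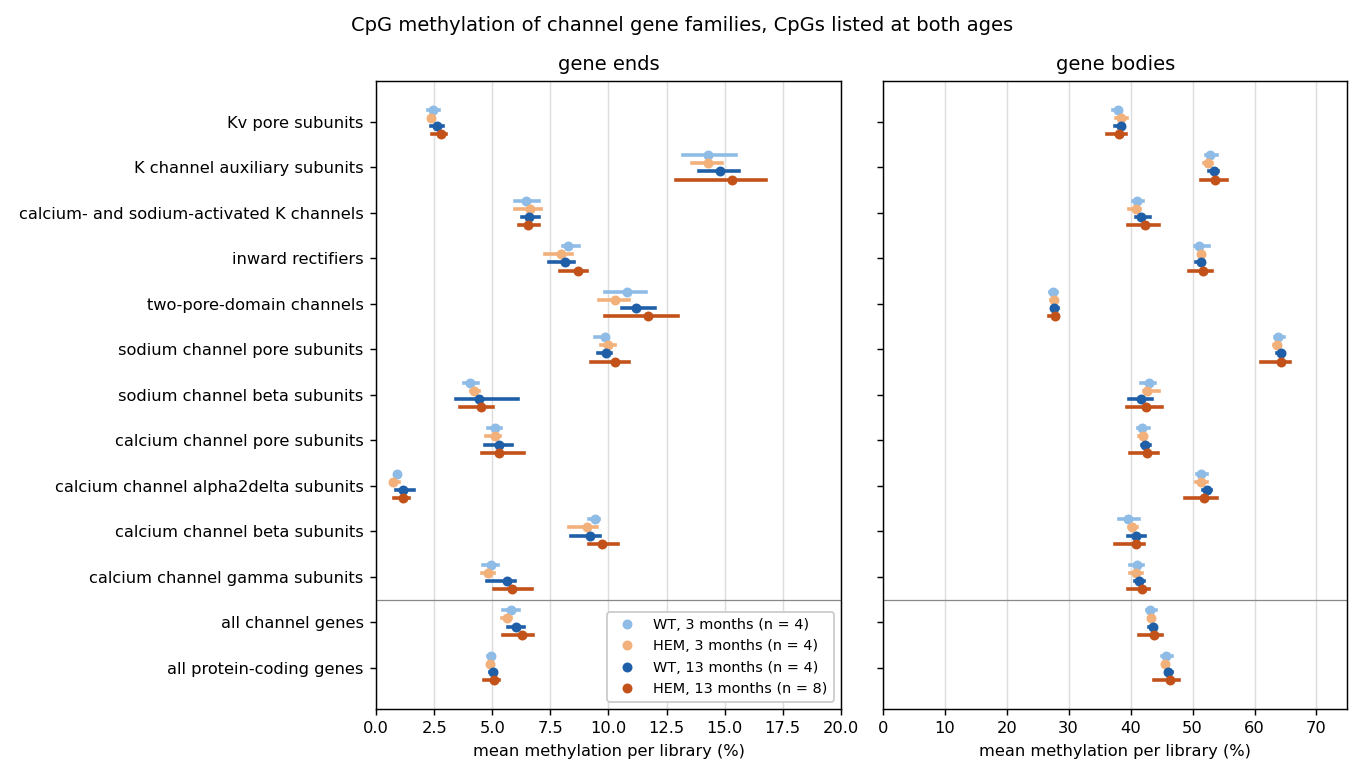
Mean methylation (percent, x axes) of gene ends (left) and gene bodies (right) of each channel family (y axis) in the 4 groups, over CpGs listed at both ages. Points are group means and lines run from the lowest to the highest library; within a family the groups lie close together, as at the alpha2delta ends (0.744 to 1.17%).

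Single CpGs showed the same split. In WT at 3 months 90.1% of the CpGs at channel gene ends were methylated under 10%. In channel gene bodies 38.7% of CpGs were under 10%, 46.4% between 10 and 90% and 14.8% over 90%, against 37.3, 42.1 and 20.6% in the bodies of all genes. Per gene, on the mean over the HEM and WT libraries at 3 months together, 62 of 96 channel ends (64.6%) were under 5%. This compares with 67.5% of all gene ends. On the same mean, the median channel body was at 60.6%, against 70.0% for all gene bodies.

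Over the CpGs listed at both ages, and among gene ends with at least 5 of them, the lowest in WT at 3 months was Cacnb2, a calcium channel beta subunit, at 0.155% ± 0.0728 over 29 CpGs. Kcnk5 (0.207%), Kcnn1 (0.276%), Kcnh6 (0.284%) and Kcnt1 (0.321%) followed, a leak channel, a small-conductance calcium-activated channel, an Erg-type channel and a sodium-activated channel. The highest were Kcnn2 (90% ± 3.49 over 7 CpGs), Kcnk18 (79.6% ± 1.15 over 21), Kcnk7 (74.5% ± 2.52 over 9), Kcnk16 (69.4% ± 1.58 over 8) and Kcnip1 (65.5% ± 5.51 over 12). Of these, 3 are two-pore-domain channels, but different ends were measured in them. The Kcnk18 CpGs lay around the start and the Kcnk16 CpGs around the far end. Kcnk7 was at 92.1% over 7 CpGs around the far end and at 13.0% over 2 around the start.

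On the same CpGs, gene bodies with little methylation belonged to Kcna1, the Kv1.1 channel, at 1.79% ± 0.394 over 82 CpGs, and to Cacng8 (4.47% over 107), Kcnc4 (6.56% over 70) and Kcnk1 (11.3% over 44). Kcnc4 encodes a fast voltage-gated channel. The most methylated bodies were Kcnt2 (95.6% ± 0.261 over 13 CpGs), Scn3b (90.7%), Kcnv2 (90.6%), Scn1a (90.5%) and Kcnj5 (90.2%). The levels of these gene parts spanned nearly the whole scale while their SDs between WT mice were mostly a few points or less.

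Among the channels that microglia are known to express, 3 had little methylation at the measured ends. Over the CpGs listed at both ages, the Kcna3 end (Kv1.3) was at 2.72% in WT and 3.12% in HEM at 3 months and at 2.25% and 2.32% at 13 months. The Kcnj2 end (Kir2.1) was at 2.39, 2.3, 2.5 and 2.69% in the same order, and the Kcnk6 end at 0.391, 0.411, 0.375 and 0.485%. The body of Kcnk13, the THIK-1 leak channel that sets microglial membrane potential, was at 15.7, 16.7, 16.0 and 15.4% over 101 CpGs. The body of Kcnn4, the calcium-activated KCa3.1 channel, was at 27.1, 25.4, 30.4 and 33.7% over 48 CpGs, and its libraries lay between 20.9 and 43.5%. Few CpGs were listed at the ends of these last 2 genes, and they were methylated. The Kcnk13 end, with 2 CpGs, was at 79.5% ± 5.14 in WT at 3 months, and the Kcnn4 end, with 3 CpGs listed at that age, at 41.0% ± 8.79. Both Kcnk13 CpGs lay around the far end of the gene, and its start was not measured. For Kcnj10, the Kir4.1 channel of astrocytes, the end was at 14.5, 13.6, 14.6 and 14.7% and the body at 59.1, 59.9, 58.6 and 58.5%.

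Neuronal channels spanned a wide range of body methylation. In the same order of groups, the Scn1a body was at 90.5, 91.2, 91.4 and 91.0%, Scn3a at 80.0, 77.3, 76.8 and 80.1%, and Scn2a at 72.4, 70.6, 71.2 and 72.5%. Scn8a differed from these sodium channels, with 37.4, 37.2, 37.8 and 38.1% over 185 body CpGs. The Kcna2 body (Kv1.2) was at 12.4, 12.0, 11.8 and 13.1%. The Cacna1a body (P/Q-type calcium channel) was at 35.8, 36.2, 36.7 and 37.6% over 288 CpGs. The Cacna1b body (N-type) was at 51.0, 52.4, 50.6 and 47.7%, and the Cacna1e body (R-type) at 60.8, 61.7, 61.1 and 60.9%. The ends of Kcnq3, Kcnc1 and Kcnd2 were all at or under 1.11%.

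Among channels known for pacing dopamine neurons, the Cacna1d body (Cav1.3) was at 38.4, 38.0, 38.2 and 38.5% over 277 CpGs, and the Kcnd3 body (Kv4.3) at 47.5, 48.0, 49.7 and 49.3%. The Kcnj6 body (GIRK2) was at 74.1, 74.2, 75.2 and 75.2% and the Kcnn3 body (SK3) at 69.4, 69.8, 69.7 and 70.2%. Each of these bodies stayed within a few points across the groups. The end of Kcnip3, the partner of Kv4 channels named above, varied more. It was at 35.9, 34.3, 34.8 and 42.5% over 10 CpGs, with an SD of 9.4 in HEM at 13 months. Its difference with age in HEM was 8.24 points and did not pass (adjusted p = 0.442 in limma). Among channels of muscle, the Cacna1s body (Cav1.1) was at 74.6, 75.1, 76.3 and 77.7%. The Scn4a end, of the skeletal muscle sodium channel, was at 64.6, 65.3, 69.1 and 70.8%. Of the heart channels listed with them, the Kcnh2 body was at 44.5, 45.7, 48.1 and 45.5%. The Kcnh2 end lay between 1.84 and 2.21% in the WT libraries at 3 months. For Kcne1 the end was at 34.0, 34.7, 38.2 and 37.7% and the body at 82.6, 83.7, 85.7 and 81.2%.

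Some gene parts varied widely between libraries of any group. The widest held few CpGs, from 5 (Scn3b body) to 12 (Kcnip1 end), beside medians of 31 per end and 29 per body at 13 months. Read depth is not given, so the part of few CpGs and reads in these ranges was not tested. The Kcne4 end (chr1:78816911-78820032 is the gene, which encodes a Kv auxiliary subunit) ran from 42.2 to 70.8% over the 13-month libraries, with a median of 62.6%, and from 41.9 to 67.5% over the 3-month ones, with a median of 57.4%. The Kcnip3 end ran from 28.2 to 55.6% at 13 months, with a median of 37.4%, and the Kcnip1 end from 53.1 to 76.1%. Among bodies, Kcnj11 (Kir6.2) ran from 56.9 to 84.2% at 13 months, and Kcnmb3 from 58.5 to 83.2% at 13 and from 64.8 to 82.4% at 3 months. At 3 months the Scn4a end (54.4 to 72.7%), the Kcnab3 body (38.0 to 55.9%) and the Scn3b body (79.0 to 95.4%) were also among the 5 widest.

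Because the material was an enriched homogenate, the share of cells of each type and the methylation per cell cannot be told apart in any of these values. The mean of 9 measured microglia marker regions (of 13 listed) was 53.5% ± 2.54 in WT and 54.1% ± 3.71 in HEM at 3 months, and 52.5% ± 4.65 in WT and 50% ± 4.86 (SD, n = 8) in HEM at 13 months, with libraries from 43.3 to 58.5%. Neuron markers (13 of 13) were at 20.4, 19.7, 21.0 and 21.2% in that order, astrocyte markers (7) at 36.8, 36.4, 35.5 and 35.8%, oligodendrocyte markers (9) at 33.6, 33.4, 33.4 and 33.8%, and endothelial and pericyte markers (8) at 49.1, 48.3, 50.8 and 49.6%. The HEM library at 13 months numbered 8 had the lowest mean over all CpGs (29.3%, with the others up to 32.2%).

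For the 10 widest gene parts (5 at each age), the percentage was correlated with the microglia marker mean of the same libraries, and p-values were adjusted over the 10 relations by the Benjamini-Hochberg method. At 13 months the Kcnip3 end (r = −0.71, permutation p = 0.0115, adjusted 0.0384; Spearman rho = −0.79, permutation p = 0.0032, adjusted 0.0245) and the Kcnip1 end (r = −0.71, permutation p = 0.00685, adjusted 0.0384; rho = −0.77, permutation p = 0.0049, adjusted 0.0245) were higher where the marker mean was lower. Without the 2 libraries farthest from the median marker mean, r was −0.55 and −0.58. At 3 months the Kcnmb3 body moved the same way as the marker mean (r = 0.84, permutation p = 0.0103, adjusted 0.0384). Its Spearman rho was 0.81 (permutation p = 0.0217, adjusted 0.0725), and r was 0.86 without the 2 farthest. The Kcne4 end had r = −0.43 at 13 months and −0.48 at 3 months, which did not pass. Genotypes were pooled in these relations.

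**Figure D3:**
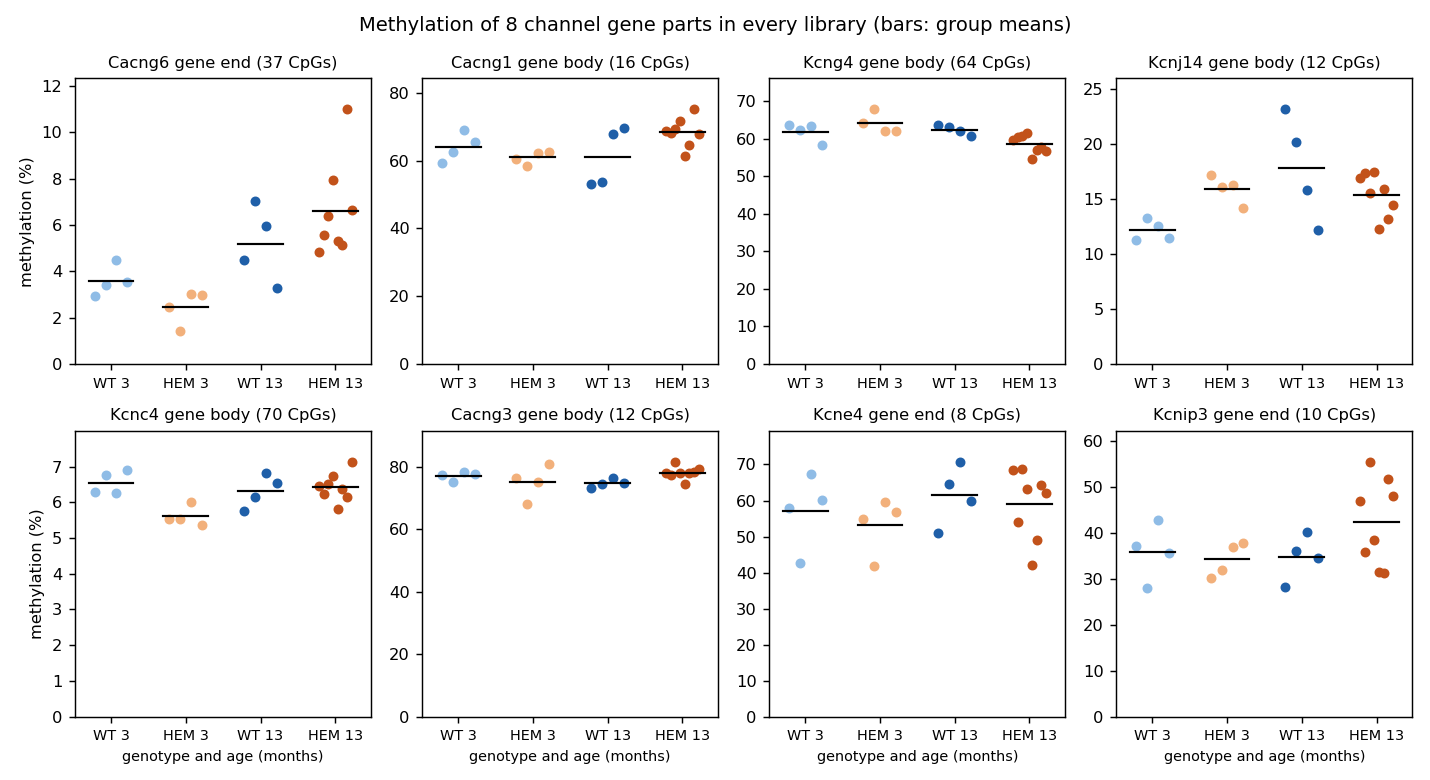
Methylation (percent, y axes) in every library (points) by group (x axes) of 8 channel gene ends or bodies, with bars at group means, over CpGs listed at both ages. Cacng6 in HEM was higher at 13 months (4.85 to 11%) than at 3 months (1.44 to 3.00%), and the Kcne4 and Kcnip3 ends spread widely within the groups.

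At 13 months no channel gene part passed the test between HEM and WT. A part was called at an adjusted p under 0.05 in limma, over all gene parts tested, with a difference of at least 5 percentage points, and only parts with a mean between 5 and 95% were tested. This left 33 channel ends and 112 channel bodies among 15410 parts. The share called was 0% of all parts, and 0 channel parts were called, with a smallest adjusted p of 0.997. At an unadjusted p under 0.05 there were 5 channel parts (3.45%), against 4.39% of all parts. Groups without overlap were found in 0 channel parts (0.318% of all parts). Of the channel ends, 23 of 33 were higher in HEM with a median difference of 0.348 points, against 52.3% of all ends and a median of 0.0452 points, and of the bodies 57 of 112. In the same comparison 8 of 9 microglia marker bodies (median −4.15 points) and 4 of 5 microglia marker ends (−0.498 points) were lower in HEM. The 1 microglia part at an unadjusted p under 0.05 was an end, higher in HEM. Higher were 3 of 4 neuron ends (0.314 points), 5 of 9 neuron bodies, 3 of 6 oligodendrocyte bodies and 2 of 2 oligodendrocyte ends. Lower were 4 of 6 astrocyte bodies, 2 of 2 astrocyte ends, 6 of 7 endothelial and pericyte bodies and 2 of 3 of their ends. The part of these markers in the channel values was not tested beyond a fit with the microglia marker mean as a covariate. In that fit 0 channel parts were called.

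The channel part of smallest p at 13 months was the end of Scn11a (chr9:119753763-119825456), the Nav1.9 channel of pain-sensing neurons, over 4 CpGs. All 4 lay around the far end of the gene, and its start was not measured. HEM libraries ran from 80.2% to 87.6% (83.7% ± 2.34, SD, n = 8) and the WT libraries were at 73.6, 77.6, 81.5 and 79.2% (78.0% ± 3.31). The groups overlapped. The difference was 5.67 points (log2 0.51, SE 0.15, adjusted p = 0.997), and with windows of 2000 bp it was −0.482 points. Cacng3, an AMPA-receptor auxiliary subunit, had a body at 78.2% ± 1.96 in HEM and 74.7% ± 1.26 in WT, a difference of 3.47 points. The Kcnab1 body, a Kv beta subunit, was 2.94 points higher in HEM. Kcng4, a modulatory Kv6.4 subunit (chr8:119623854-119635680), had the lowest p of the parts lower in HEM. Its body ran from 54.5 to 61.4% in HEM (58.5% ± 2.39) and was at 63.6, 63.1, 62.0 and 60.7% in WT (62.4% ± 1.27), a difference of −3.83 points over 64 CpGs. Kcnk4 (−3.75 points) and Kcne1 (−4.54 points) bodies came next, and the adjusted p of all of these was 0.997.

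At 3 months no channel gene part passed the test between the genotypes either. With 33 ends and 113 bodies tested among 15942 parts, 0 were called (0% of all parts) and the smallest adjusted p was 0.999. Those at an unadjusted p under 0.05 numbered 6 (4.11%, against 4.19% of all parts). In 3 parts the groups did not overlap (2.05%, against 2.33%). Of the ends, 14 of 33 were higher in HEM (median −0.263 points), and of the bodies 59 of 113 (0.0576 points).

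Those 3 were the bodies of Kcnj14, Kcnq3 and Kcnc4. Kcnj14 (Kir2.4, chr7:45816467-45824747) was at 17.2, 16.1, 16.3 and 14.2% in the HEM libraries, and the WT libraries were at 11.3, 13.3, 12.6 and 11.5%. The difference was 3.79 points (log2 0.43, SE 0.09, adjusted p = 0.999). Kcnc4 went the other way, with HEM libraries at 5.54, 5.54, 6.01 and 5.37% and WT libraries at 6.30, 6.76, 6.26 and 6.90%, a difference of −0.939 points. Kcnq3, an M-current subunit, was at 82.4% ± 0.678 in HEM and 80.0% ± 1.06 in WT. Kcnj5 (3.18 points), the Kcnk18 end (−2.53 points) and Kcnk1 (−0.924 points) completed the 3 parts of smallest p in each direction. The Scn11a end was 3.76 points higher in HEM at this age.

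**Figure D4:**
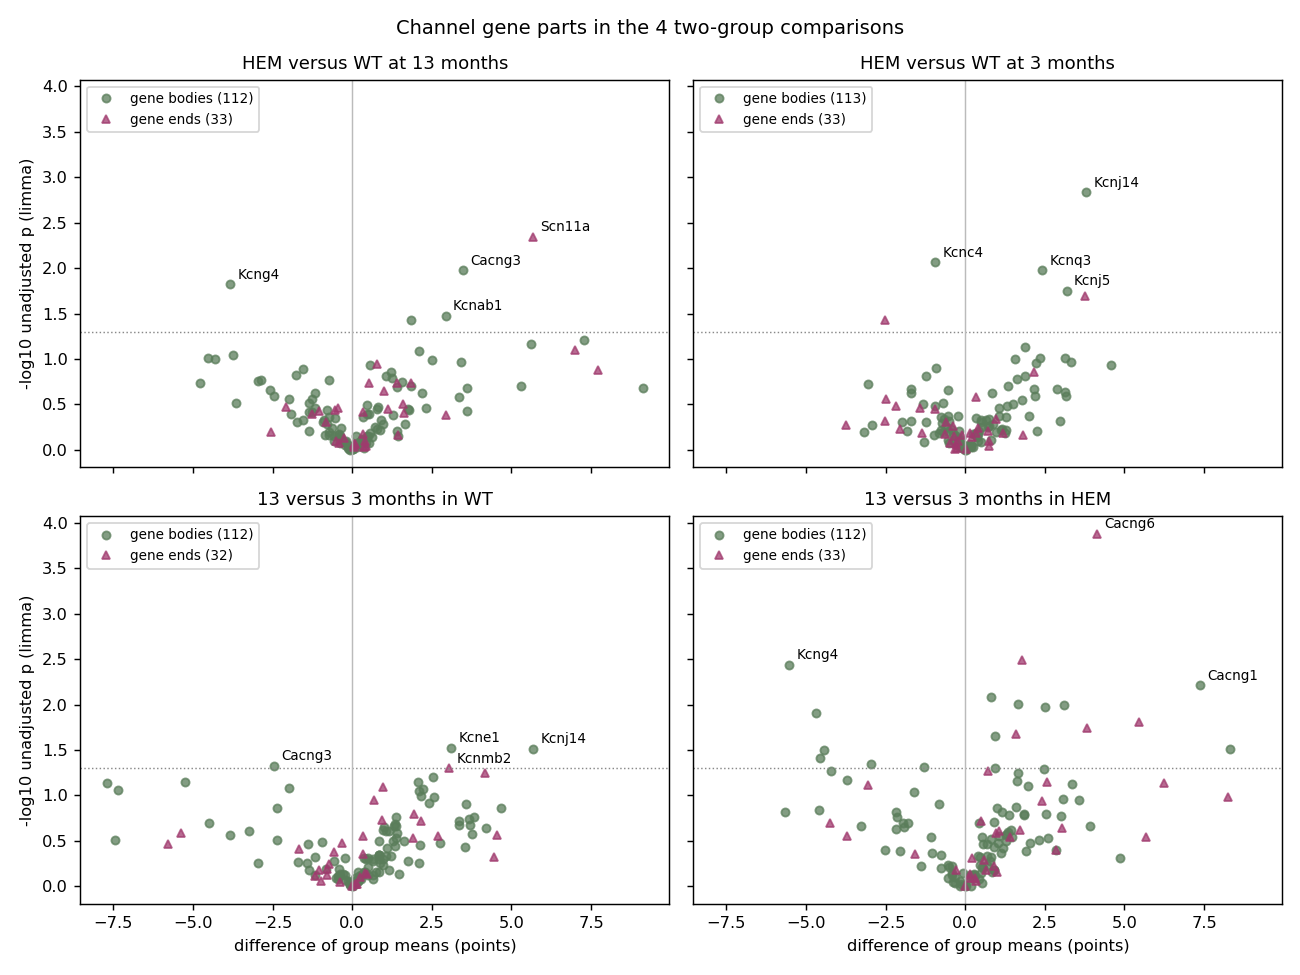
Difference in methylation (percentage points, x axes) against −log10 p from limma, unadjusted (y axes), for every tested channel gene end (triangles) and body (circles) in the 4 comparisons of 2 groups; the dotted line is the 0.05 level. Most parts lie within a few points of 0, and the HEM age comparison has the most above the line, 18.

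The age comparisons set libraries of 2 separately deposited age sets against each other, so age and set cannot be told apart. They used the CpGs listed at both ages. In WT, 0 of 144 channel parts were called (0% of 15297), with a smallest adjusted p of 0.967. At an unadjusted p under 0.05 there were 3 (2.08%, against 4.92%), and in 5 the groups did not overlap (3.47%, against 2.80%). These 5 were the Kcng1 end and the Kcnab1, Kcnd3, Cacnb2 and Scn4b bodies. Higher values at 13 months were seen in 94 parts and lower ones in 50, with a median of 0.386 points, beside 62.2% higher and a median of 0.346 points over all parts.

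In WT the Kcnj14 body was at 23.2, 20.2, 15.8 and 12.2% at 13 months and 12.2% on average at 3 months, a difference of 5.68 points (adjusted p = 0.968). Its 13-month libraries reached down into the 3-month range. Kcne1 (3.10 points), an auxiliary subunit of the slow delayed rectifier of the heart, and the Kcnmb2 end (3.04 points), a BK channel beta subunit, were the other 2 of smallest p among the higher ones. Lower at 13 months were the bodies of Cacng3 (−2.46 points), Kcna5 (−5.24 points) and Kcnmb3 (−7.70 points), with values of 69.5% ± 7.37 and 77.2% for Kcnmb3. None passed.

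In HEM, 0 of 145 channel parts were called (0% of 15321) and the smallest adjusted p was 0.135. At an unadjusted p under 0.05 there were 18 channel parts (12.4%), against 13.4% of all parts. In 3 the groups did not overlap (2.07%, against 1.46%). Of the 33 ends, 28 were higher at 13 months with a median of 0.967 points, beside 63.3% and 0.314 points over all ends. Of the 112 bodies 72 were higher, with a median of 0.504 points, beside 64.4% and 0.557 points. Of the microglia markers, 8 of 9 bodies (median −4.20 points) and 5 of 5 ends (−2.87 points) were lower at 13 months in HEM, and 3 of 4 neuron marker ends were higher (2.81 points). Higher too were 7 of 9 neuron bodies, 4 of 6 astrocyte bodies, 4 of 6 oligodendrocyte bodies and 6 of 7 endothelial and pericyte bodies. Of the other ends, 2 of 2 oligodendrocyte and 2 of 2 endothelial and pericyte ones were higher, and 2 of 2 astrocyte ones lower. The fit with the marker mean as a covariate again called 0 channel parts.

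The end of Cacng6 (chr7:3423588-3435667), a gamma subunit related to that of the skeletal muscle calcium channel, had the smallest p. Over 37 CpGs around the gene's lower end, HEM libraries were at 2.47, 1.44, 3.00 and 2.98% at 3 months and ran from 4.85 through 11% at 13 months, with a mean of 6.61% ± 2.06. The groups did not overlap. The difference was 4.13 points (log2 1.18, SE 0.21, adjusted p = 0.135). Cacng6 reached the 5% limit only through the 13-month group. Without the limit the adjusted p was 0.0703, and with start-site ends only, where fewer parts are tested, it was 0.0328, still under the 5 points of a call. WT libraries were at 2.92, 3.39, 4.47 and 3.52% at 3 months and at 4.49, 7.05, 5.96 and 3.28% at 13 months, which overlap. The promoter window of RefSeq for this gene held no measured position.

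In HEM the Cacng1 body was at 68.3% ± 4.18 at 13 months and 61.0% ± 1.87 at 3 months, a difference of 7.36 points (adjusted p = 0.274). In the other direction, the Kcng4 body in HEM was at 64.2, 67.9, 62.1 and 62.1% at 3 months, above all of the 13-month libraries, a difference of −5.53 points (adjusted p = 0.245). The bodies of Cacna1b (−4.68 points) and Kcna5 (−4.44 points) followed. The Kcnn4 body was 8.31 points higher at 13 months (adjusted p = 0.336), and the Scn4a end 5.45 points (adjusted p = 0.305). The Kcng4 body in HEM is in both this comparison and that of the genotypes at 13 months, which share the 13-month HEM libraries.

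An interaction term tested whether the difference between HEM and WT was the same at both ages. Of 144 channel parts 0 passed (0% of 15312), with a smallest adjusted p of 0.894. An unadjusted p under 0.05 was found in 9 (6.25%, against 5.16%). The 3 of smallest p were the bodies of Kcnj14 (−6.24 points, log2 −0.64, SE 0.23), Kcng4 (−6.02 points) and Kcnc4 (1.05 points), where a negative value is a smaller HEM minus WT difference at 13 than at 3 months.

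At the level of single CpGs, 4711 channel positions were tested between genotypes at 13 months and 4911 at 3 months. A CpG was called at an adjusted p under 0.05 with a difference of at least 10 points. None was called in channel genes, against 4 of all positions (0.000881%) at 13 months and 0 (0%) at 3 months. At an unadjusted p under 0.05 there were 282 channel CpGs (5.99%, against 5.82%) at 13 months and 233 (4.74%, against 4.53%) at 3 months. In the age comparison of WT, 1 of 4535 channel CpGs was called (all positions 81, or 0.0183%). In that of HEM, 0 of 4628 were (all positions 136, or 0.0305%), and in the interaction 0 of 4576 (all positions 1, or 0.000224%). At an unadjusted p under 0.05 these 3 had 222 (4.90%, against 4.79%), 465 (10%, against 10.4%) and 324 (7.08%, against 6.28%) channel CpGs.

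The called CpG lay in the body of Scn8a, at position 100983811 of chromosome 15, which is 113948 bp from the gene's lower end. In WT it was at 23.1, 8.70, 11.8 and 12.5% at 13 months and at 0% in all 4 libraries at 3 months. The difference was 14.0 points (log2 4.04, SE 0.44, adjusted p = 0.0122). With 0% throughout WT at 3 months, this Scn8a CpG reached the lower limit of 5% for testing only through the group where it is high, and without that limit it was not called (adjusted p = 0.0617). In HEM it was at 8.45, 0, 0 and 4.76% at 3 months, and at 0% in 7 of 8 libraries and 5.26% in the library numbered 8 at 13 months. The 4 WT libraries at 13 months thus stood above all others, the closest being the 8.45% of 1 HEM library at 3 months. HEM and WT at 13 months differed by −13.4 points at this Scn8a CpG, from the same WT libraries. It was again tested only through the WT group, with an adjusted p of 0.0727, and of 0.218 without the limit on the mean.

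The 8 listed positions within 100 bp moved much less. Their median difference between WT ages was 2.45 points, with a highest value of 7.29 points, and their means in WT at 13 months ran from 1.28 to 7.87%. The highest of these means, 9 bp away, was 7.87% ± 9.21, with 20.8% in 1 library. The adjusted p of the called CpG rose to 0.987 on the percent scale and to 0.263 with an offset of 5, so that it was not called in either, and without 1 of the WT libraries numbered 7 at 13 months or 1, 3, 4 and 5 at 3 months it ran from 0.0501 to 0.0742.

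**Figure D5:**
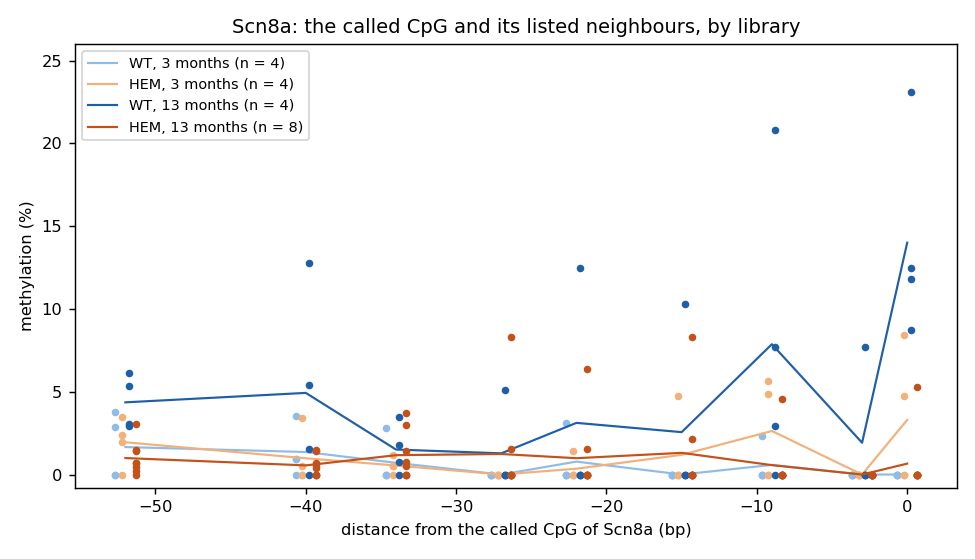
Methylation (percent, y axis) in every library (points) of the called Scn8a CpG and 8 listed positions upstream of it, by distance (bp, x axis, −52 to 0), with lines joining group means. At the called CpG the 4 WT libraries at 13 months lie between 8.70 and 23.1%, and the neighbours' means stay under 8% (highest 7.87%).

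A CpG in the body of Cacng2, which encodes stargazin, the AMPA-receptor trafficking subunit, passed the adjusted p but not the size. At position 78056029 of chromosome 15, the 4 WT libraries at 13 months were all at 100% and the HEM libraries ran from 86.9 through a median of 92.5 to 95.2%. The difference was −8.05 points (log2 −3.25, SE 0.33, adjusted p = 0.00744). Here the upper limit of 95% was met only through HEM, and without it the adjusted p of this Cacng2 CpG was 0.00298. At 3 months HEM was at 100, 94.4, 89.6 and 91.9% and WT at 100, 100, 97.6 and 100%. The position 12 bp away differed by 0.917 points between genotypes at 13 months.

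The other channel CpGs of smallest p did not pass. At 3 months a Kcnk3 end CpG (TASK-1) stood at 0% throughout HEM (4 libraries), against 9.52, 7.69, 20 and 4.76% in WT (adjusted p = 0.268, and 0.369 for Kcnk3 without the limit on the mean). A Kcnip1 body CpG ranged from 95.5 to 100% in HEM and from 61.1 to 80.0% in WT (adjusted p = 0.81). The Kcnj14 and Kcnma1 CpGs differed by 15.6 and −7.14 points (adjusted p = 0.555 and 0.985). The Kcnj14 CpG, at 16.8% in HEM and 1.21% in WT, was tested only through HEM (adjusted p = 0.715 without the limit on the mean). Kcnip1 in HEM (96.9%) and Kcnma1 in WT (98.6%) lay above the upper limit, so each was tested only through the other group. Without the limit the adjusted p of each was 0.882. The groups did not overlap at the Kcnj14 and Kcnma1 CpGs, but these were picked for small p, so this is no further support.

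With age, a CpG at the Cacng6 end (position 3423669) was at 4.26, 19, 14.0 and 12.5% in WT at 13 months and at 0% in all 4 at 3 months (adjusted p = 0.0631, and 0.283 for Cacng6 without the limit on the mean). Like the Kcnk3 CpG, it was tested only through the group where it is high. In WT, Kcna6 and Cacna1c body CpGs differed by −15.1 and −25.6 points, at 81.0% against 96.2% and at 54.3% against 79.9% (adjusted p = 0.957 and 0.975). The Kcna6 CpG met the upper limit on the mean only through the 13-month WT group (adjusted p = 0.859 without it). In HEM, Kcnip1 and Cacna2d2 body CpGs differed by 8.99 and 27.4 points and Kcna6 and Cacna1h body CpGs by −8.04 and −10.4 points, with adjusted p between 0.132 and 0.208. This Kcnip1 CpG, at 10.4% at 13 months and 1.41% at 3 months, was tested only through the 13-month group (adjusted p = 0.343 without the limit). The Kcna6 and Cacna1h CpGs, at 97.8 and 98.2% at 3 months, met the upper limit only through that group (adjusted p = 0.295 and 0.435 without it). For the interaction, CpGs in Kcnip4 (17.8 points) and Cacna2d2 (−28.6 points) had an adjusted p of 0.633.

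Related channels, pore partners and ion pumps outside the symbol rule were counted in the same fits, from a list of 40 that included the Hcn pacemaker channels, Nalcn and the sodium pump. They had 39 measured genes at 34.3% in WT and 34.4% in HEM at 3 months and 33.7% in both at 13 months. None of their parts was called in any comparison. At 13 months 14 of 32 bodies were higher in HEM and 18 lower (median −0.111 points), as were 6 and 2 of 8 ends (0.295 points). At an unadjusted p under 0.05 there was 1 body, lower, and 0 ends, against 4.39% of all parts. At 3 months 13 bodies were higher and 19 lower (−0.239 points) and 5 and 3 ends (0.179 points), with 1 body, higher, at that p (4.19% of all parts). With age in WT 22 of 32 bodies (0.653 points) and 5 of 7 ends (0.603 points) were higher, with 3 bodies at that p, all higher (4.92% of all parts). With age in HEM 20 of 32 bodies (0.618 points) and 6 of 8 ends (0.49 points) were higher, with 0 bodies and 2 ends at that p, both higher (13.4% of all parts). In the interaction 3 of 32 bodies, all lower, and 0 of 8 ends were at that p (5.16% of all parts).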

How the data were processed

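The authors deposited, for each library, a methylation percent (0 to 100, as the values show) at each CpG position, and the positions are the same in every library of an age. Bowtie2, methylKit and the build mm10 are named in the submitters' processing notes, with no role or version, and filters on positions are not given in the sources used here. Gene coordinates are those of RefSeq on GRCm38.p6, the same build. The 2 joint tables have no header, so their 21 value columns were not used. Read depth is not given, so no interval can be put on a single percentage, and a value of 0 or 100% may rest on few reads. No 2 libraries were identical (mean absolute differences of 3.392 to 5.091 points at 13 months and 3.652 to 4.53 at 3 months).

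Percentages were averaged per gene part and tested in limma 3.58.1 (R 4.3.3) with moderated variances on log2((percent + 1) / (100 − percent + 1)), with Benjamini-Hochberg adjustment over all features of chromosomes 1 to 19, X and Y. A genotype difference and an age difference used only their own groups, and the interaction used all 4. The fit was tested on simulated data. Positions in promoter windows fell on a CG in 99.5% of cases. No exon annotation was used. Labels number the libraries within a group, and each library was treated as a separate mouse. The p-values set group differences against the spread between these libraries.

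The members and lists were chosen with earlier results of these data known. The genes named are those with a called part or CpG, the 3 parts of smallest p in each direction of each comparison, the 5 highest, lowest and most variable parts with at least 5 CpGs, those known for a cell type, and the 2 CpGs of smallest p in each direction; a few of these are not reported here, though counts include them. Alternatives were other scales, offsets, filters, windows and covariates, and leaving out each library.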

Additional observations from a re-analysis of the deposited data

Results flagged for a closer look

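The 4 libraries of each WT group and of HEM at 3 months, and the 8 of HEM at 13 months, were searched for 1 library far from the others in the named gene parts. This was done in 112 groups of values, of which about 5%, or 5.6 groups, would be found by chance, and 2 were found. The Kcnmb3 gene body was at 58.5% in the WT library at 13 months numbered 6, and the other 3 libraries were between 71.7 and 74.0%. The Kcnq3 gene body was at 78.4% in the WT library at 3 months numbered 5, and the other 3 were between 80.4 and 80.7%. Kcnmb3 encodes a BK channel beta subunit and Kcnq3 an M-current subunit.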

How the results depend on the processing

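The count of channel gene parts called was 0 in all 5 comparisons under every alternative run. Of 577 values for the 27 named gene parts, 1 reversed: the Scn11a end at 13 months was −0.482 points between genotypes with windows of 2000 bp. The count of channel CpGs called between genotypes at 13 months was 0, and 1 with no minimum difference (Cacng2). Leaving out 1 library each, it ran from 0 to 1, with 1 without HEM replicate 8 (Scn8a, −14 points, adjusted p = 0.00272) and 1 without WT replicate 1. At 3 months it ran from 0 to 1 (1 without WT replicate 1). In the WT age comparison the 1 called CpG fell to 0 on the percent scale, 0 with an offset of 5, 0 with no filter on the mean and 0 without chromosomes 9 and 17, where the Scn8a adjusted p was 0.987, 0.263, 0.0617 and 0.0501. Leaving out 1 library each it ran from 0 to 1, with 0 without WT replicate 7 at 13 months and without WT replicates 1, 3, 4 or 5 at 3 months (adjusted p 0.0501 to 0.0742). In the HEM age comparison it ran from 0 to 1 (1 without HEM replicate 2 or 3 at 3 months). The cause was not tested.

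With each gene weighted equally, channel ends stood at 16.6% (HEM) and 16.3% (WT) for 13 months and 15.7% and 16.1% for 3 months, and bodies at 56.6, 56.4, 56.7 and 56.3%. With adjacent positions averaged first, bodies were at 45.4, 45.3, 45.5 and 45.3%, and ends in HEM at 3 months at 5.91%. Over CpGs listed at both ages, bodies in HEM at 3 months were at 43.3%.

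Samples of the same replicate number did not deviate together throughout. The correlation was 0.178, 0.423 and 0.0958 for the 3 numbers shared by HEM and WT at 13 months, each matching its own number best, which is a hint from the data only, and 0.128 and −0.308 at 3 months. For the ages of HEM it was 0.0535, −0.32 and −0.0574. With the replicate number as a block, 0 channel parts and 0 channel CpGs were called between genotypes at 13 months, at 3 months and between ages in HEM. The WT groups share 1 number between ages, so no paired fit was made there or for the interaction. Unknown read depth and 4 mice in most groups limit the precision.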
